A study of Mus musculus with 12 samples.

Results

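Bone morphogenetic proteins (BMPs) are secreted ligands, and a set of secreted antagonists binds them or related ligands outside the cell. The gene family described here has 9 members: the ligand genes Bmp2, Bmp3, Bmp4, Bmp5, Bmp6 and Bmp7 and the antagonist genes Grem1, Chrdl1 and Fst. Members were found on the array as probe sets whose only gene symbol in the platform's probe-to-gene table is 1 of these names. That gave 16 probe sets for 8 of the 9 genes, among 18193 genes with a named probe set. No probe set carried Bmp3 as its only symbol, and this gene was not analysed here. The members were measured in side population cells of mouse muscle, cells sorted by their ability to pump out the dye Hoechst. 6 preparations came from extraocular muscles (EOM), which move the eye, and 6 from tibialis anterior (TA), a hind limb muscle, with 1 array per preparation. Both groups were side population cells, and the labels name no treatment, transgene, strain, sex or age, nor how many animals went into a preparation. The labels state that the preparations were separated independently.

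BMP ligands act as dimers that bring type I and type II receptors together, after which Smad1, Smad5 and Smad9 are phosphorylated and genes such as Id1 are switched on. Bmp2 and Bmp4 are close relatives, and Bmp5, Bmp6 and Bmp7 form another subgroup. Antagonists hold ligands away from their receptors: Grem1 (gremlin) and Chrdl1 (chordin-like protein) bind BMPs, while Fst (follistatin) is best known for binding activins and myostatin and also binds some BMPs. In skeletal muscle, BMP signalling is known for its part in satellite cell expansion and in maintaining muscle mass, and BMPs are also known from tendon, bone and vessel development.

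In their main probe sets, Bmp5 and Bmp6 had a lower signal on every EOM array than on any TA array, and Bmp4 was lower on average with some overlap. The 250 bases before the start of these 3 ligand genes are shown because these genes were lower together; the sequences are from a table of RefSeq windows used here (build GRCm38.p6), in which 4 members were matched. Each is written 5′ to 3′ on the gene's strand, at chr14:46390670-46390919 (minus strand) for Bmp4, chr9:75775115-75775364 (plus strand) for Bmp5 and chr13:38345466-38345715 (plus strand) for Bmp6. Capitals mark the E-box CACGTG, which reads the same on both strands, and the GC box GGGCGG or its reverse CCGCCC.
Bmp4: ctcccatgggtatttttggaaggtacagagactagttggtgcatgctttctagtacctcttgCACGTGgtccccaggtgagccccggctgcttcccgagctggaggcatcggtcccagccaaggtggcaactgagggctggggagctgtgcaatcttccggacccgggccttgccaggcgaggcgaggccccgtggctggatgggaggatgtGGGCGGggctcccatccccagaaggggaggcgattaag
Bmp5: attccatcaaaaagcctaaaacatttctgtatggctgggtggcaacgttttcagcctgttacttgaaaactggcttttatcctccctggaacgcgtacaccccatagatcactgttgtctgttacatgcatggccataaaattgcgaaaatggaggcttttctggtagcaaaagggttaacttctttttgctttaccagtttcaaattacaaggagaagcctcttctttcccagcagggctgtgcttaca
Bmp6: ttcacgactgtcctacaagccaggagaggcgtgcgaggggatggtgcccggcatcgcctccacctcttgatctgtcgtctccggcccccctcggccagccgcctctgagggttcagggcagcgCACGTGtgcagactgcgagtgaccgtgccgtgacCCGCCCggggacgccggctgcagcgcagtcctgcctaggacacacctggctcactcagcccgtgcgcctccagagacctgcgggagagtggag
The windows of Bmp4 and Bmp6 each hold 1 E-box, beginning 188 bases before the start in Bmp4 and 127 in Bmp6, and each holds 1 GC box. The Bmp5 window holds neither. Of 32851 such windows in the table, 6.02% hold an E-box and 32.7% a GC box. The share of G and C was 63.2% in the Bmp4 window, 68.8% in that of Bmp6 and 42.8% in that of Bmp5, against a median of 52.4% over all windows. The motifs were chosen after the sequences were seen, and a match is a description of the letters only.

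Signals are MAS5 values, a brightness per probe set that the authors had scaled so that all arrays had a trimmed mean of 150, and a level is comparable between arrays for 1 probe set but not between probe sets. The array median was 31.1 to 43.4 on 9 arrays, and it was raised on EOM 1 (87.2), TA 3 (69.5) and TA 5 (63.1), where the digit is the replicate number in the labels. The same 3 arrays had the highest 3' to 5' signal ratios of the actin control probe sets (104.2, 165.3 and 100.2, against 5.27 to 68.6 on the others) and the highest mean signals of the hybridization controls (27310, 18820 and 12730, against 3356 to 7554). With the log2 actin ratio as a covariate the members called below kept their calls. EOM 1 correlated least with its own group, at a mean r of 0.632 across tested probe sets. Differences below are EOM minus TA on the scale of log2(signal + 16), with the moderated standard error (SE), from limma over all 27022 tested probe sets, and a gene passed at a Benjamini-Hochberg adjusted p under 0.05. On this scale the change of dim genes is understated. Where a gene had several probe sets, the brightest on average over the 12 arrays was taken as its main probe set. Dim probe sets were not tested. Of the 16 member probe sets 12 were tested, covering 7 genes. The untested ones are 2 of Bmp7, 1 of Chrdl1 and the only probe set of Grem1.

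Of the 7 members tested, 5 passed: Bmp4, Bmp5, Bmp6 and Chrdl1 were lower in EOM and Fst was higher. Over all 13067 tested genes 10.9% passed, 6.81% lower and 4.05% higher in EOM. Without EOM 1 the same 5 members passed, as did 20.6% of all genes tested. Of the 12 tested member probe sets 8 passed, against 8.23% of all tested probe sets. The filter uses the mean over all 12 arrays, which a high signal in 1 group raises. The count of 5 therefore describes the tested members only. The groups did not overlap in 4 of the 7 main probe sets (Bmp5, Bmp6, Chrdl1 and Fst), against 7.13% of all tested genes. The median difference of the 7 members was -1.02, and that of all tested genes was -0.04. Without EOM 1 the median of the members was -0.60 and without TA 5 it was -0.41, in both cases with Grem1 past the filter and 8 members tested. In RNA from a bulk preparation, fewer cells of a type and less RNA per cell cannot be told apart.

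**Figure D1:**
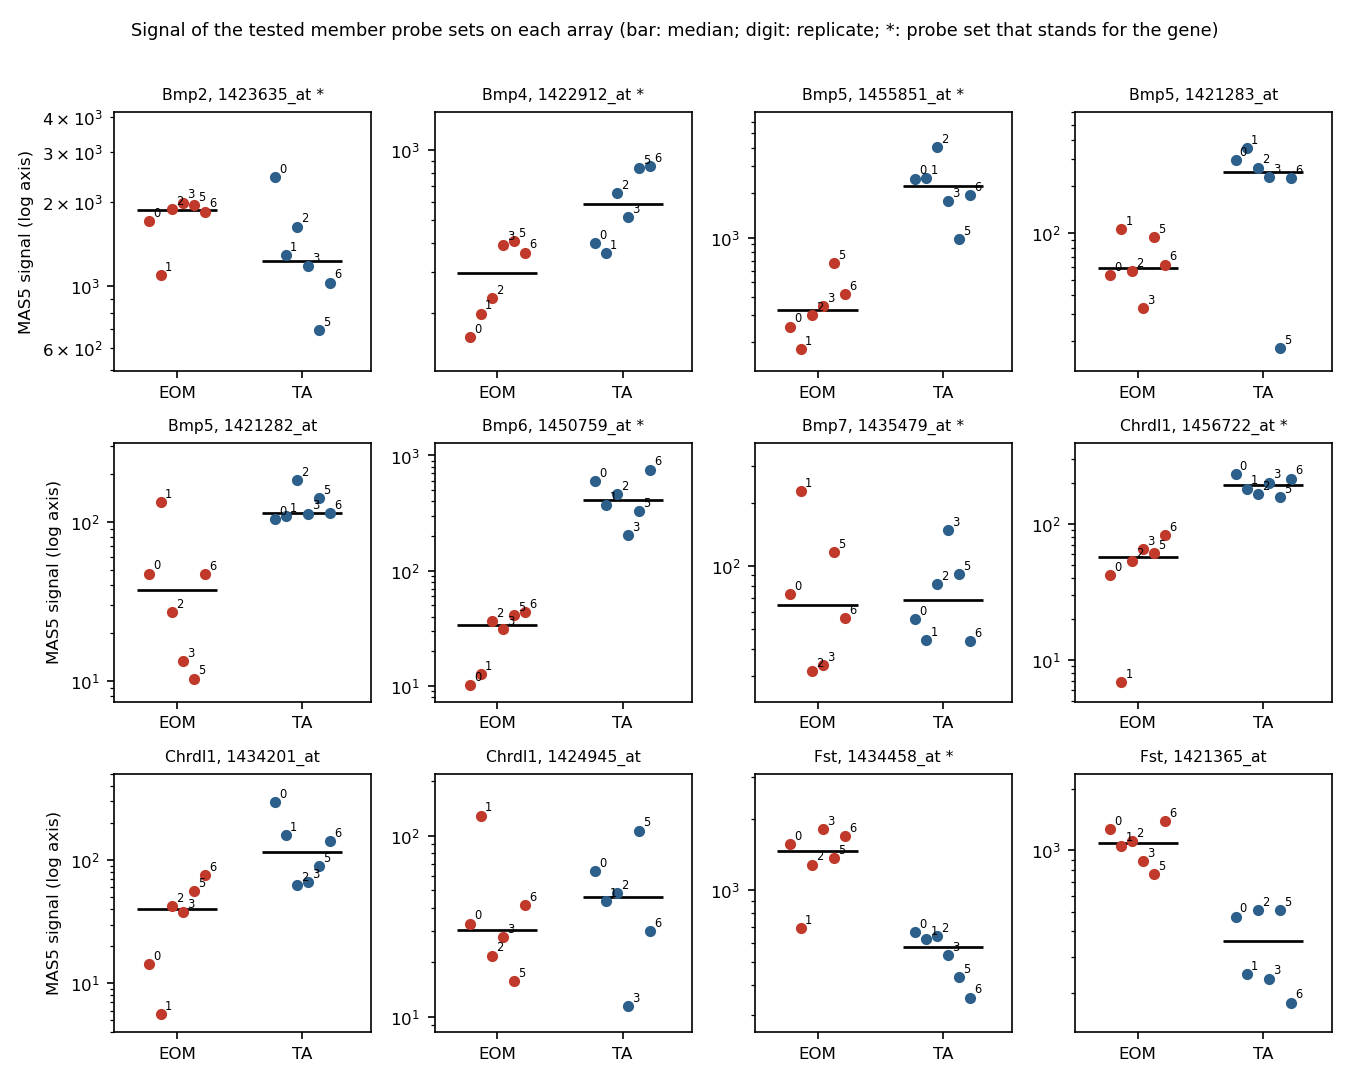
MAS5 signal (log axis) of the 12 tested member probe sets on each of the 6 EOM arrays and 6 TA arrays, 1 panel per probe set, with points labelled by replicate number and a bar at the group median. Bmp6 lies at 10.2 to 43.7 in EOM and 204.2 to 753.6 in TA, while both Fst probe sets lie higher in every EOM array than in any TA array.

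Among the ligands, Bmp6 had the largest difference. Bmp6, a ligand known for inducing hepcidin in the liver, had a signal of 10.2 at the lowest, 33.9 at the median and 43.7 at the highest in EOM, and of 204.2, 414.2 and 753.6 in TA. All 6 EOM arrays lay below all 6 TA arrays. The mean was 29.3 ± 14.5 for EOM against 451.5 ± 197.5 for TA (SD, n = 6), giving a log2 difference of -3.33 ± 0.33 (SE, limma adjusted p = 3.79e-06). Leaving out any 1 array gave -3.52 to -3.16. The added constant moved this estimate most, to -3.97 with a constant of 1 and -2.39 with 64. The table has no present or absent calls, so it does not say whether the EOM signals are above background.

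Bmp5, a ligand known from skeletal and cartilage development, was lower in EOM in its main probe set, 1455851_at. Its signals in EOM were 178.0 at the lowest, 326.0 at the median and 670.8 at the highest, and in TA 972.5, 2212 and 4069. Again all 6 EOM arrays lay below all 6 TA arrays. The log2 difference was -2.60 ± 0.34 (SE, 6.05-fold lower, limma adjusted p = 6.36e-05). The other Bmp5 probe sets were dimmer. Probe set 1421282_at had 10.3, 36.95 and 132.9 in EOM (lowest, median, highest) and 104.2, 113.2 and 183.9 in TA. It was lower by the test too, at -1.44 ± 0.38 (adjusted p = 0.0214), with 5 of 6 EOM arrays below all TA arrays and EOM 1 as the exception. This call was lost without EOM 2, EOM 3, EOM 5 or TA 2, each left out alone, with an adjusted p of up to 0.0619. Probe set 1421283_at had 32.9, 59.6 and 105.7 in EOM and 18.0, 246.8 and 353.3 in TA. Its difference of -1.33 ± 0.47 did not pass (adjusted p = 0.102): 5 TA arrays lay above all EOM arrays, while TA 5 was below them all at 18.0. Without TA 5 it was -1.84 (adjusted p = 0.000572), and without EOM 1 it was -1.45 (adjusted p = 0.0418). The 3 probe sets of Bmp5 thus had the same sign and differed in size.

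Bmp4, a ligand of early mesoderm and later of mesenchyme, was lower in EOM by a smaller margin. Its signals were 157.6, 297.4 and 406.5 in EOM (lowest, median, highest) and 361.2, 585.6 and 853.5 in TA. The groups overlapped: 3 EOM arrays lay below all TA arrays, and 4 TA arrays lay above all EOM arrays. The log2 difference was -1.02 ± 0.30 (SE, 2.02-fold lower, 291.7 ± 108.4 against 603.4 ± 213.3, SD, n = 6), just past the threshold (limma, adjusted p = 0.0458). The call was lost in 7 of the 12 fits with 1 array left out (EOM 0, EOM 2, EOM 6, TA 2, TA 3, TA 5 or TA 6), with an adjusted p of up to 0.125, and the estimates ranged from -1.14 to -0.87. It was also lost with median centring (-0.92, adjusted p = 0.250), without the filter on dim probe sets (adjusted p = 0.0593) and without the intensity trend (adjusted p = 0.0668).

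For Bmp2, the close relative of Bmp4, no difference passed the test. Its signals were 1092, 1861 and 1984 in EOM (lowest, median, highest) and 693.9, 1230 and 2452 in TA. The TA arrays spread around the EOM arrays, with TA 0 above all of them and 2 TA arrays below all of them. EOM 1 was the low array of its group at 1092, while the other EOM arrays were at 1708 to 1984. The log2 difference was 0.42 ± 0.29 (SE, 95% interval -0.18 to 1.02, limma adjusted p = 0.484), so an increase of up to 1.02 or a small decrease is within the interval.

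Bmp7, a ligand known from kidney and eye development, was dim. Its main probe set had 31.5, 64.85 and 226.3 in EOM (lowest, median, highest) and 43.8, 68.7 and 148.2 in TA. The 2 medians lay within the range of either group, and the highest value was on EOM 1. The log2 difference was 0.02 ± 0.40 (SE, 95% interval -0.82 to 0.87, limma adjusted p = 0.988). Its sign turned without EOM 1, to -0.27 (adjusted p = 0.657). The other Bmp7 probe sets were under the filter, with medians of 16.4 and 3.55 in EOM and 23.5 and 2.30 in TA. No direction can be given for Bmp7 at this signal.

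The antagonists did not move one way. Fst, the gene of follistatin, was higher in EOM in both of its probe sets. The main one, 1434458_at, had 696.5, 1465 and 1816 in EOM (lowest, median, highest) and 354.7, 580.3 and 669.7 in TA. Every EOM array lay above every TA array, though EOM 1 at 696.5 was close to TA 0 at 669.7. The log2 difference was 1.32 ± 0.27 (SE, 2.49-fold higher, limma adjusted p = 0.00370). With median centring of the arrays it was 1.41 and did not pass (adjusted p = 0.0614). The second probe set, 1421365_at, had 764.2, 1079 and 1394 in EOM and 179.2, 360.3 and 508.6 in TA, again without overlap. Its log2 difference was 1.63 ± 0.29 (SE, 3.10-fold higher, adjusted p = 0.00123). With any 1 array left out, the estimates of the 2 probe sets ranged from 1.20 to 1.50 and from 1.47 to 1.75, and both passed in all 12 such fits.

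Chrdl1, which encodes a chordin-like protein that binds BMP4 among others, was lower in EOM in 2 of its 3 tested probe sets. The main one, 1456722_at, had 6.90, 57.35 and 82.9 in EOM (lowest, median, highest) and 157.5, 192.0 and 231.6 in TA. The groups did not overlap, and EOM 1 was far below the other EOM arrays. The log2 difference was -1.74 ± 0.32 (SE, 3.33-fold lower, limma adjusted p = 0.00184), and without EOM 1 it was -1.45 (adjusted p = 0.000211). At these dim signals the size depended on the added constant, with -2.15 for a constant of 1 and -1.17 for 64, and it was -1.13 for the mean of the gene's probe sets. Probe set 1434201_at had 5.60, 40.1 and 76.0 in EOM and 63.2, 116.3 and 295.4 in TA, with 5 of 6 EOM arrays below all TA arrays. Its difference was -1.46 ± 0.41 (adjusted p = 0.0339). This call was lost in 6 of 12 fits with 1 array left out (EOM 0, EOM 2, EOM 3, TA 0, TA 1 or TA 6), with an adjusted p of up to 0.0893. Probe set 1424945_at had medians of 30.25 in EOM and 45.85 in TA and did not pass (-0.19 ± 0.42, adjusted p = 0.885). The fourth, under the filter, had medians of 26.55 and 18.4. The probe sets of Chrdl1 therefore do not all show the difference of the main one.

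Grem1, the gene of gremlin, was too dim to be tested. Its signals were 15.2, 33.3 and 45.0 in EOM (lowest, median, highest) and 2.90, 20.25 and 50.9 in TA. The TA arrays spanned the EOM range, with 3 below and 2 above all EOM arrays. Fitted without the filter, the difference was 0.39 ± 0.41 (SE, limma adjusted p = 0.807).

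**Figure D2:**
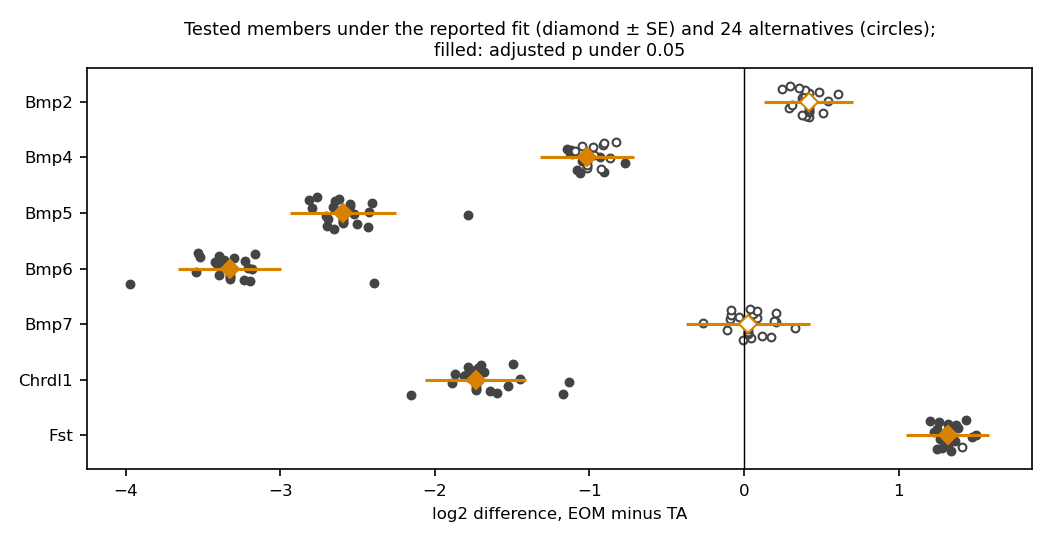
Log2 difference, EOM minus TA, of the 7 tested members: diamonds with SE are the reported fit, circles are 24 alternative settings (12 of them with 1 array left out), and filled symbols passed at an adjusted p under 0.05. Bmp5, Bmp6 and Chrdl1 are filled in all settings, Bmp4 in 13 of 24 and Fst in 23 of 24, while Bmp2 and Bmp7 are open throughout.

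The other genes of the pathway were read from 6 lists with 88 entries, of which 63 were tested: 9 were higher and 2 lower in EOM. Beside these and all list counts below, 4.05% of all tested genes were higher and 6.81% lower. Without EOM 1, 20.6% of all tested genes passed in either direction. Among 11 other ligands of the family (growth and differentiation factors, activin and inhibin subunits and others) none passed, with a median difference of -0.02 (-0.16 to 0.05 with 1 array left out). Leaving out EOM 1 brought 1 of them past, Gdf10, at 1.27 (adjusted p = 0.00174), a ligand named here after its values were seen. With all arrays it was at 0.61 ± 0.56 (SE, limma adjusted p = 0.649), with 147.6 on its lowest EOM array and 2248 at the EOM median.

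Among 9 other secreted antagonists tested, 1 was higher and 0 were lower (median 0.18, and up to 0.46 with 1 array left out). It was Fstl1, a follistatin-like glycoprotein, with signals of 7423, 13730 and 17680 in EOM (lowest, median, highest) and 3914, 5396 and 8316 in TA. The groups overlapped only slightly, and the log2 difference was 1.23 ± 0.27 (SE, limma adjusted p = 0.00658), with its second probe set at 1.23. With median centring its adjusted p was 0.0510. Bmper, a BMP-binding regulator of endothelial cells, was at -0.41 ± 0.44 (adjusted p = 0.708). Nog, which encodes noggin, was under the filter, with medians of 15.5 in EOM and 11.4 in TA. Without EOM 1 3 antagonists were higher and 1 lower. The additional ones, named after their values were seen, were the chordin gene Chrd (1.43, adjusted p = 0.00133, and 1.15 with 0.0570 with all arrays), Twsg1 (2.85, adjusted p = 2.18e-05, and 1.97 with 0.138) and the transmembrane Crim1 (-1.50, adjusted p = 0.00415, and -1.24 with 0.0601). With all arrays the other tested probe sets of Twsg1 ran from -0.19 to 1.82, and that of Crim1 was at -1.16.

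Of 14 receptors and co-receptors 2 were higher and 1 lower in EOM (median -0.04, and -0.10 to 0.06 with 1 array left out). Bmpr1b, a type I receptor, had 86.4, 105.6 and 142.6 in EOM (lowest, median, highest) and 1.60, 7.35 and 150.5 in TA. The highest TA array lay above all EOM arrays, and the difference was 1.77 ± 0.48 (SE, limma adjusted p = 0.0269). With TA signals this low its size was 0.91 to 2.97 over the alternative settings. The second Bmpr1b probe set gave 0.05. The call was lost in 8 of 12 fits with 1 array left out (EOM 0, EOM 2, EOM 3, EOM 5, TA 1, TA 2, TA 5 or TA 6), with an adjusted p of up to 0.0707. Neo1, the neogenin receptor that binds repulsive guidance molecules, was at 1.24 ± 0.28 (adjusted p = 0.00855), with other probe sets from -0.45 to 1.33. Eng, the endoglin co-receptor of endothelial cells, was lower at -1.84 ± 0.23 (adjusted p = 3.55e-05), from 2323 ± 537.1 in TA to 628.7 ± 106.9 in EOM (SD, n = 6), with no overlap; its second tested probe set was at -0.96. No call was made for 3 further receptors: the widely expressed Bmpr1a was at 0.87 ± 0.49 (adjusted p = 0.359), Bmpr2 at -0.22 ± 0.30 (adjusted p = 0.794) and the endothelial type I receptor Acvrl1 at -0.61 ± 0.32 (adjusted p = 0.321). Without EOM 1 Bmpr1a passed, at 1.36 (adjusted p = 0.00571), and the list had 5 higher and 1 lower.

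Inside the cell, 1 of 10 Smads and regulators passed (median 0.22, and 0.38 without EOM 1 or 0.14 without TA 6). It was Smad1, a transducer of BMP signals, at 0.96 ± 0.28 (SE, limma adjusted p = 0.0436), with signals of 2017 ± 614.2 (EOM) against 1031 ± 313.8 (TA; SD, n = 6), and other probe sets from -0.08 to 0.45. Its call was lost in 9 of 12 fits with 1 array left out (all but EOM 1, TA 0 and TA 3), with an adjusted p of up to 0.119. It was also lost with median centring (adjusted p = 0.183, the highest of the other alternatives), without the filter, without the intensity trend and with the replicate block. Of 11 target and feedback genes 1 was lower and 0 were higher (median -0.73). Id1, an inhibitor of basic helix-loop-helix factors and a direct BMP target, had 79.3, 110.9 and 165.9 in EOM (lowest, median, highest) and 326.4, 465.8 and 1478 in TA. The groups did not overlap, and the difference was -2.02 ± 0.33 (SE, adjusted p = 0.000598). The inhibitory Smad6, another target, was at 0.04 ± 0.31 (adjusted p = 0.971). Without EOM 1 the target list had 4 lower and 0 higher, with a median nearer to 0 at -0.42.

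The list of proteases that process BMP precursors or chordin also holds procollagen processing enhancers and Htra1. It had the highest median of the 6 lists, at 1.36: 5 of 8 were higher in EOM and 0 lower. Of the 8 differences 6 were positive and 2 negative. Pcsk6, a proprotein convertase, had 630.4, 2303 and 2754 in EOM (lowest, median, highest) and 169.6, 351.4 and 565.5 in TA, a difference of 2.49 ± 0.36 (SE, limma adjusted p = 0.000157) with no overlap. Pcolce2, an enhancer of procollagen C-proteinase, was at 2.24 ± 0.38 (adjusted p = 0.000699). Another convertase, Pcsk5, was at 1.60 ± 0.26 (adjusted p = 0.000483), with other probe sets from 0.52 to 2.13, and the secreted protease Htra1 was at 1.57 ± 0.26 (adjusted p = 0.000635). The fifth was Bmp1, at 1.16 ± 0.31 (adjusted p = 0.0245), which despite its name encodes a metalloprotease that cleaves chordin and procollagen; its other probe set was at 2.64. The main probe set of Bmp1 lost its call in 6 of 12 fits with 1 array left out (EOM 0, EOM 2, EOM 3, EOM 5, EOM 6 or TA 1; adjusted p up to 0.0675) and with median centring (adjusted p = 0.152). A further convertase, Pcsk7, was at -0.78 ± 0.24 and did not pass (limma adjusted p = 0.0518), though every EOM array lay below every TA array. Without EOM 1 it passed as lower, at -0.83 (adjusted p = 0.0175), and the list had 5 higher and 1 lower. Pcolce2, Htra1 and Bmp1 are better known from the processing of procollagen and other matrix proteins.

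**Figure D3:**
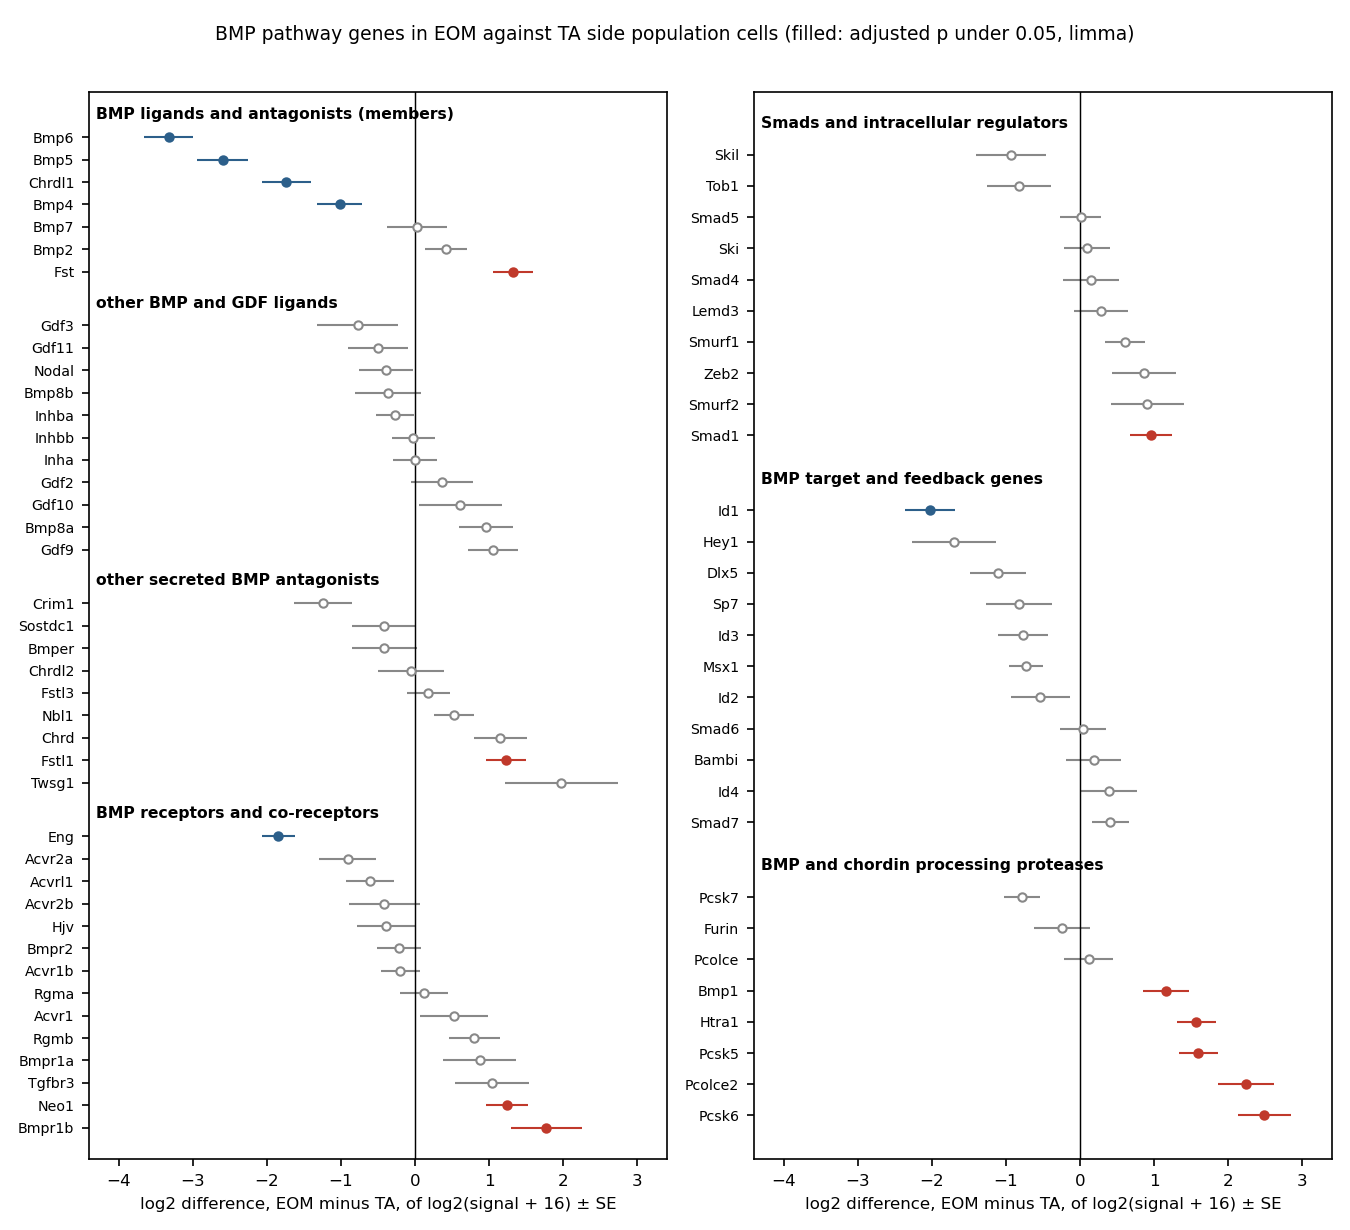
Log2 difference, EOM minus TA, ± SE of the 7 tested members and of 63 other BMP pathway genes by role, each gene by its main probe set; filled symbols passed at an adjusted p under 0.05 (limma), red for higher and blue for lower in EOM. In the protease list 5 of 8 are filled on the right, at 1.16 to 2.49, while none of the 11 other ligands is filled.

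Markers of other cell types differed between the groups together with the members. The sums below add the signals of different probe sets, so the brightest genes of a list weigh most in its sum. Of 20 endothelial markers tested 18 were lower in EOM (median -3.56), and their summed signal was 2851 to 5514 in EOM against 30710 to 61830 in TA. Of 9 tendon cell markers 8 were lower (median -3.41; 2824 to 13840 against 34780 to 117300), and of 14 pericyte and smooth muscle markers 11 were lower (median -2.07; 6320 to 10950 against 21440 to 36250). Of 13 macrophage and monocyte markers 7 were lower (573.6 to 5104 against 3038 to 19340). The highest of these EOM sums was on EOM 5, and the other EOM arrays reached 1278, below all TA arrays; the lowest TA sum was on TA 1, and the next was 6142. Of 16 fibroblast and fibro-adipogenic progenitor markers 7 were higher (163600 to 380400 against 105900 to 224800). The highest of these sums was on EOM 1, and the other EOM arrays reached 203700, within the TA range. Of 8 satellite cell and myoblast markers tested 1 was lower, and Pax7 and Myf5, which define satellite cells, were under the filter. Pax7 had medians of 4.95 in EOM and 31.7 in TA, with all EOM arrays below all TA arrays. Myf5 had medians of 7.7 in EOM and 24.5 in TA, with overlap. These dim differences were not tested. Lower in EOM were also 6 of 8 lymphocyte and pan-leukocyte markers, 1 of 6 myofibre markers and 1 of 8 Schwann cell and nerve markers, and none of these was higher. No marker of these lists was at 0, which without present or absent calls does not show that a cell type was present. Of 4 side population markers, all transporter genes, 2 were lower and 0 higher. Abcg2, the transporter by which side population cells export the dye, had a lower mean signal with EOM than with TA arrays (649.7 against 2668, log2 difference -2.23, limma adjusted p = 0.00206), and Abcb1b was at -1.38 (adjusted p = 0.00453). The others did not pass: Abcb1a was at -0.57 (adjusted p = 0.489) and Abcc1 at 0.23 (adjusted p = 0.744). The part of these cell types in the lower Bmp4, Bmp5, Bmp6 and Chrdl1 and in the higher Fst was not tested.

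**Figure D4:**
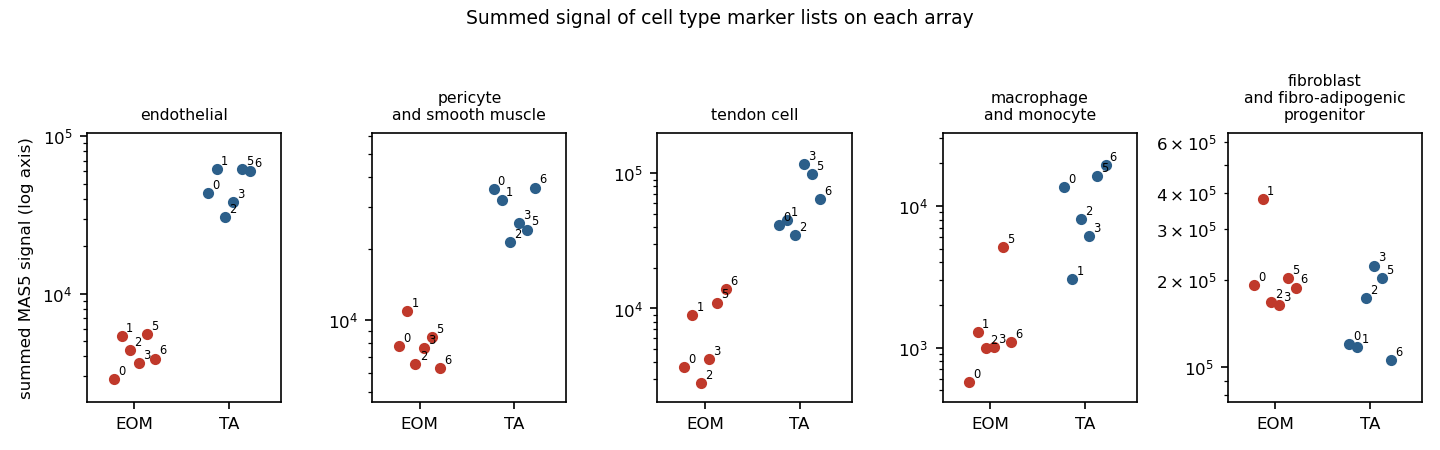
Summed MAS5 signal (log axis) of 5 marker lists on each EOM and TA array, with points labelled by replicate number. The endothelial, pericyte and tendon sums do not overlap between the groups; the endothelial sum is 2851 to 5514 in EOM and 30710 to 61830 in TA.

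The genes whose pattern over the 12 arrays was most like that of each called member were found by Pearson correlation of log2(signal + 16), given as a description; the difference between the groups adds to each r, so r of the deviations from the group means stands beside it. For Bmp6 they were Gimap6 (r = 0.983, deviations 0.888), Gimap5 (0.977, deviations 0.813) and the endothelial water channel gene Aqp1 (0.975, deviations 0.704). For Bmp5 they were Acss1 (0.963, deviations 0.772), Rgs4 (0.950, deviations 0.684) and Mbnl3 (0.950, deviations 0.867). Bmp4 was nearest to Ncf4 (0.926, deviations 0.837), Med22 (0.924, deviations 0.876) and Med15 (0.909, deviations 0.797). Chrdl1 was nearest to Macf1 (0.979, deviations 0.914), Etl4 (0.974, deviations 0.892) and Klhl23 (0.969, deviations 0.907). Fst was nearest to the fibroblast growth factor gene Fgf7 (0.977, deviations 0.909), Cyp1b1 (0.966, deviations 0.865) and Ndrg4 (0.963, deviations 0.918). Both kinds of r run over all 12 arrays, EOM 1 among them. EOM 1 was far below its group for the main probe sets of Chrdl1 (6.9, next 42.0) and Fst (696.5, next 1283.3). How much a single array adds to these r was not tested.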

How the data were processed

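Total RNA of 12 preparations was amplified in 2 cycles and hybridized to mouse whole-genome Affymetrix arrays, per the labels' protocols. The authors deposited 1 signal intensity per probe set and array, on a linear scale, summarized with MAS5 per the submitters' processing notes; each array has a trimmed mean of 150 (2% off each end). Genome build and scan dates are not given in the sources used here. Groups and replicate numbers come from the titles; 0 columns were unused and 0 of 66 array pairs were identical.

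Of 45101 probe sets, 64 controls were removed, and the 40% with the lowest mean log2(signal + 16) were not tested, leaving 27022. The 2 groups were fitted in limma 3.58.1 (R 4.3.3; intensity trend, two-sided, Benjamini-Hochberg over all tested probe sets, threshold 0.05). The fit was tested on simulated data. Probe sets were named through the platform table. Of the 45037 non-control probe sets 932 had several symbols and 9160 had none. Those of them past the filter were tested but not named. Named by rule were all members, up to 4 called genes per pathway list, 10 set genes and the 3 genes most correlated with each called member. Outside the rule, Gdf10, Chrd, Twsg1, Crim1, Bmp1 and Pcsk7 were named after their values were seen. The rule also allowed 2 called genes per marker list; counts are given in their place, with the 4 side population genes, Pax7 and Myf5 as checks of the sort. The members and lists were chosen with earlier results of these data known. P-values set the difference between the groups against the spread between the preparations within a group. Array number limits the precision. Alternatives were the added constant, normalization, filter, trend, array weights, replicate block, 3' to 5' ratio, probe set averaging and left-out arrays.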

Additional observations from a re-analysis of the deposited data

Results flagged for a closer look

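In 6 of 32 groups of 6 arrays (16 member probe sets in each of EOM and TA), 1 array stood far from the others by Dixon's criterion on log2(signal + 16), which chance gives in about 1 of 20 groups. EOM 1 was that array in 4 of them. It was low for Bmp2 at a signal of 1091.7 (next lowest 1708.3), for the main Chrdl1 probe set at 6.9 (next 42.0) and for the main Fst probe set at 696.5 (next 1283.3), and high for the untested Chrdl1 probe set 1421295_at at 81.1 (next 32.8). TA 5 was low for the Bmp5 probe set 1421283_at at 18.0 (next 225.8) and high for the untested Bmp7 probe set 1432410_a_at at 40.1 (next 10.2). On the signals themselves, a scale added after seeing the data, 6 groups met the criterion, 3 of them the same. The main probe sets of Chrdl1 and Fst and the Bmp5 probe set 1421283_at no longer met it. EOM 1 then stood apart for the Bmp5 probe set 1421282_at at 132.9, the Bmp7 probe set 1432410_a_at at 54.8 and the Chrdl1 probe set 1424945_at at 129.4. EOM 1 and TA 5 also had a raised array median, at 87.2 and 63.1.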

How the results depend on the processing

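The 5 called members numbered 4 to 5 with 1 array left out, and 3 with median centring, where Bmp4 and Fst were lost. Bmp5, Bmp6 and Chrdl1 kept direction and call in all 24 settings. Bmp4 kept its direction in all and its call in 13; without EOM 1, TA 3 and TA 5 together it was at -0.83 (limma, adjusted p = 0.0664). Bmp7, never called, changed sign with a constant of 1 (-0.005), with array weights (-0.11) and in 5 fits with 1 array left out, whose estimates ran from -0.27 to 0.21. The 2225 probe sets past the threshold became 1450 with median centring, 5488 with array weights, 4709 without EOM 1, TA 3 and TA 5, and 1580 to 4386 with 1 array left out, the highest without EOM 1. The 11 called pathway genes became 27 with array weights, 23 without those 3 arrays, and 8 to 23 with 1 array left out. The cause was not tested. With the replicate block, 5 members, 11 pathway genes and 1632 probe sets passed, and no member changed its call. Both groups carry the same replicate numbers. Same-numbered arrays correlated at -0.32 to 0.16 in their deviations from the group means, over 0.1 in 2 of 6 pairs. Of the 6 EOM arrays 1 was nearest to its own number. EOM 1 was nearest to TA 3, and both had a raised array median. These values do not show a pairing, but they cannot exclude one, because array quality can also shape the deviations. With few arrays, no present or absent calls and strong amplification, differences of dim probe sets (Bmp7, Grem1, some of Chrdl1) are not resolved.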
